A study of Mus musculus with 30 samples.

Results

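The 39 genes described here carry fatty acids into the heart muscle cell and burn them there. They comprise genes for uptake and delivery, for activation and the carnitine shuttle, for the beta-oxidation spiral with its auxiliary enzymes, for thioesterases and uncoupling, for lipid droplets, and for the regulator PPARα. They were taken by name from a list that was drawn up with the direction of these genes in the comparisons already known, so that their counts and medians are a description and not a test of the group. Beyond the name, a member was kept where its mean count was at least 10 per heart. All 39 passed in both count tables, out of 11985 genes that passed with Aβ42 or ScrAβ42 and 12274 with the antibodies. No member lay close to this limit, since the lowest mean counts were 99.2 for *Angptl4* in the former and 82.8 for *Ehhadh* in the latter.

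The heart takes up fatty acids that lipoprotein lipase frees from circulating triglycerides, and carries them through the membrane and cytosol on CD36 and fatty acid binding proteins. Acyl-CoA synthetases activate them, the carnitine shuttle moves the acyl groups into mitochondria, and the enzymes of beta-oxidation shorten them to acetyl-CoA. The nuclear receptor PPARα switches on many of these genes, and fatty acids for oxidation are the main fuel of the adult heart.

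Gene expression was measured by sequencing of total RNA from the left ventricle of 30 male wild type C57BL6J mice, in separate peptide and antibody studies. In the peptide study, 7 mice received recombinant human Aβ42 and 7 received ScrAβ42, a peptide of scrambled sequence, by daily intraperitoneal injection for 4 weeks from 12 weeks of age by the labels. The dose was 1 mg per day by the labels and 1 µg per day by the methods. Of the cohorts, one killed after a glucose tolerance test and one after echocardiography, the paper's account of the sequencing points to the experiment with the glucose tolerance test, while the labels name none. In the antibody study, 8 mice received 3D6, an antibody that binds Aβ, and 8 received an isotype control antibody, both at 0.75 mg/kg once weekly while on a high-fat diet for 12 weeks until echocardiography and 2 weeks more. The methods give these weeks, while the paper's results give the period for these mice as 4 months. These mice were 12 weeks old at a first echocardiography, and by the methods diet and antibody began the week after it, while the labels give 12 weeks as the age at the start of the diet. The deposited design text describes the mice of the antibody study as given Aβ42, which the methods do not. Hearts of the peptide study are named by their labels and those of the antibody study by the number in theirs. The mice were housed in groups, but no source gives which hearts shared a litter or cage. The p-values therefore measure only the spread between these hearts, and each sample is a piece of bulk tissue.

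Each heart of the peptide study gave 4478991 to 6015767 counts, of which the members took 1.94% to 3.09% and transcripts of the mitochondrial genome 12.9% to 22.2%. The antibody study gave 6397189 to 8310480 counts per heart, with 1.71% to 2.16% on the members and 25.9% to 37.8% on the mitochondrial genome. Cardiomyocyte markers were high in every heart, with *Myh6* between 23200 and 44470 CPM, counts scaled within each study to the effective library size, which is the unit of every level given here. Atrial markers should be near 0 in the ventricle. Their summed level was 1158 to 8417 CPM in hearts Abeta42_3451, Abeta42_3455, Abeta42_3457 and Abeta42_3458 and 3665 CPM in heart ScrAbeta42_3448, against 3.82 to 158 CPM in the other 9 hearts of the peptide study. In the antibody study, it was 2776 CPM in control heart 15 and at most 668 CPM elsewhere. Hearts Abeta42_3457 and ScrAbeta42_3448 also had the lowest mitochondrial shares of the peptide study, 12.9% and 13.8%, and control heart 22 had the lowest of the antibody study.

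With Aβ42, no fatty acid gene passed the test, and the differences were small in either direction. The study asked with this comparison what raised circulating Aβ42 does to the heart. The log2 fold change was below 0 for 29 of the 39 genes, against 49.5% of all genes tested, and above 0 for 10, against 50.5%. Its median was -0.04, against 0.0015 over all genes. Its size was under 0.1 for 32 of them, with standard errors of 0.0997 to 0.269. With total count scaling, 15 members and 58.8% of all genes were above 0, and the medians were -0.026 and 0.030. Adjusted p-values ran from 0.763 to 1.00 (quasi-likelihood test in edgeR, Benjamini-Hochberg adjustment), where 0 of all genes were called. An unadjusted p under 0.05 was reached by 0 members in edgeR and 0 in DESeq2, against 6.51% of all genes in edgeR (3.59% higher and 2.92% lower), and DESeq2 called 12 genes, none of them a member. An exact permutation p under 0.05 (two-sided, as in all permutation tests here) was found for 0 members, against 6.11% of all genes, 2.85% higher, and no member had every Aβ42 heart above the ScrAβ42 median, against 3.85%, while 1 member, *Acacb*, had every Aβ42 heart below it, against 3.81%. The CPM of the groups overlapped for all 39 genes, while 0.0918% of all genes had groups that did not overlap. The small deficit rested on few hearts: without heart Abeta42_3457, 33 genes were above 0 with a median of 0.06, without heart ScrAbeta42_3449, 24 genes with a median of 0.0058, and without heart ScrAbeta42_3448, 5 genes with a median of -0.09. Leaving out hearts Abeta42_3457 and ScrAbeta42_3448 together, an alternative added after the data were seen, gave 23 genes above 0 and a median of 0.01. The count was 19, 18 and 16 without hearts Abeta42_3455, Abeta42_3458 and ScrAbeta42_3447, and 6 without each of hearts Abeta42_3452, Abeta42_3456 and Abeta42_3460. Of all genes, 49.2% to 51.9% were above 0 in the fits that left out 1 heart.

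With 3D6, most fatty acid genes had a log2 fold change above 0 against the control antibody, by small amounts that no single gene carried past the adjusted threshold. This comparison addressed whether binding Aβ in mice fed a high-fat diet alters the heart. The log2 fold change was above 0 for 36 of the 39 genes, against 47.4% of all genes tested, and below 0 for *Mcee*, *Etfb* and *Acot13*, against 52.6%. Its median was 0.14, against -0.0098 over all genes. With total count scaling, 35 members and 35.5% of all genes were above 0, and the medians were 0.09 and -0.06. Adjusted p-values were 0.946 to 0.988 (quasi-likelihood test in edgeR, Benjamini-Hochberg adjustment), and 0 of all genes were called by edgeR or by DESeq2. An unadjusted p under 0.05 was reached by 4 members in edgeR, *Acot1*, *Eci2*, *Cpt2* and *Ehhadh*, all higher, and by 8 members in DESeq2. Of all genes, 3.64% reached it in edgeR, 1.32% higher and 2.32% lower, and 3.67% in DESeq2. An exact permutation p under 0.05 was found for 7 members, *Cpt2*, *Slc25a20*, *Crat*, *Hadha*, *Eci2*, *Acot1* and *Pnpla2*, against 4.01% of all genes, 1.65% higher. Every 3D6 heart lay above the control median for 10 members, against 2.22% of all genes, and below it for 0, against 2.44%, but the groups overlapped for all 39, as they did for every gene tested, where the share without overlap was 0%. In bulk tissue, fewer cells of a type and less RNA per cell cannot be told apart. Endothelial markers moved the opposite way: 10 of 10 were lower with 3D6, 3 of them with an unadjusted p under 0.05, and their summed level was 770 to 908 CPM with 3D6 and 829 to 1285 CPM with the control antibody. With the endothelial marker score as a covariate, added after the data were seen, 26 members were above 0, the median was 0.05 and 0 members had an unadjusted p under 0.05, against 2.21% of all genes. Since these markers were themselves lower with 3D6, this fit cannot tell their part from that of treatment. Without 3D6 heart 4, 2 members and 2.08% of all genes had such a p, and without control heart 3, 10 members and 5.37% of all genes.

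**Figure D1:**
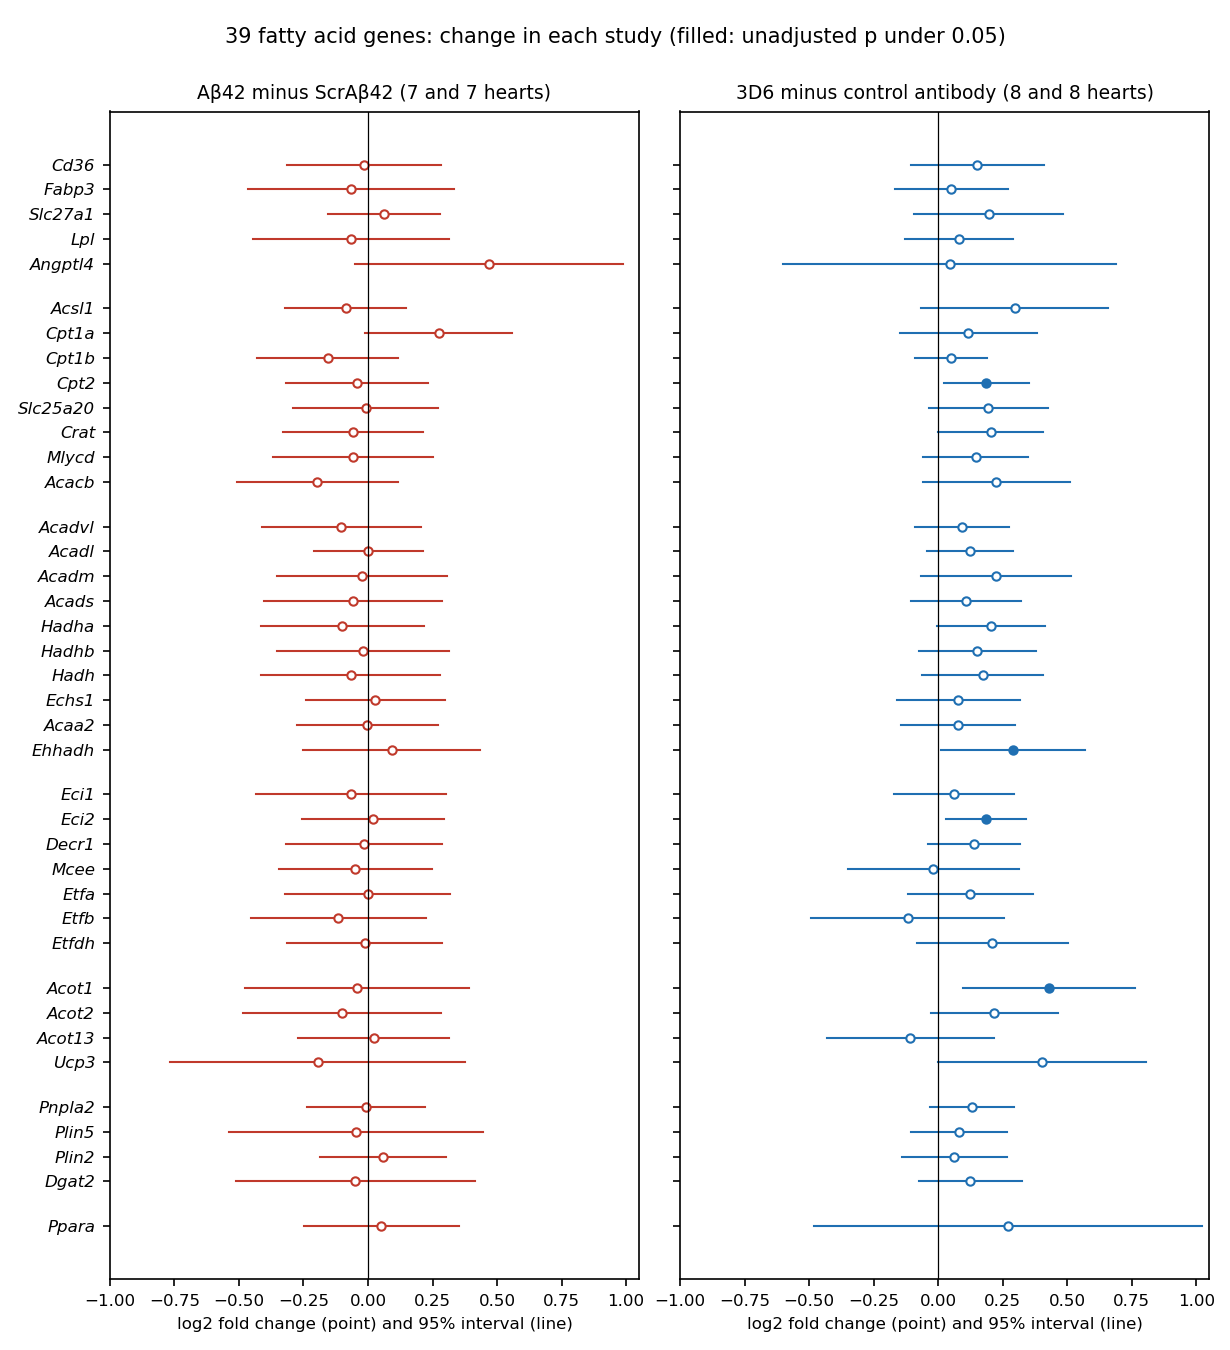
Log2 fold change of each of the 39 genes (x axis, no unit) with Aβ42 against ScrAβ42 (left, 7 and 7 hearts) and with 3D6 against the control antibody (right, 8 and 8 hearts), grouped by role. Points are estimates, lines are 95% intervals from the quasi-likelihood fit, and filled points have an unadjusted p under 0.05. On the left, 32 points lie within 0.1 of 0, and on the right, 36 of 39 lie above 0.

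Of the 5 genes of uptake and delivery, 5 were higher with 3D6, with a median log2 fold change of 0.08, and 2 with Aβ42, with a median of -0.01. CD36, the fatty acid translocase of the cell surface, had transcript levels of 918, 992 and 1321 CPM (lowest, median and highest heart) with 3D6 and 644, 927 and 1212 CPM with the control antibody. With Aβ42, *Cd36* was at 1529, 2872 and 3072 CPM and with ScrAβ42 at 2086, 2761 and 2934 CPM. In each study the lowest heart was one that stood apart, control heart 22 and heart Abeta42_3457, and the log2 fold changes were 0.15 ± 0.12 (SE) with 3D6 and -0.01 ± 0.14 with Aβ42. *Fabp3*, which encodes the heart's fatty acid binding protein, was at 2425, 2953 and 3457.3 CPM with 3D6 and 2282, 2897 and 3265 CPM with the control antibody. It was at 364, 851 and 1095 CPM with Aβ42 and 672, 886 and 1034 CPM with ScrAβ42. The groups overlapped over most of their range in both studies, with log2 fold changes of 0.05 ± 0.10 and -0.07 ± 0.19. *Lpl*, for lipoprotein lipase, was at 2946, 3382 and 3664 CPM with 3D6 and 2322.5, 3276 and 3750.6 CPM with the control antibody. With Aβ42 it was at 3509.6, 7584.5 and 8055 CPM and with ScrAβ42 at 4584, 7518 and 8671 CPM. Its log2 fold changes were 0.08 ± 0.10 and -0.07 ± 0.18, and 1 heart of each peptide group, Abeta42_3457 and ScrAbeta42_3448, lay far below the rest. *Slc27a1*, for the transport protein FATP1, had log2 fold changes of 0.19 and 0.06.

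*Angptl4*, whose product inhibits lipoprotein lipase and which PPARα and fasting induce, had the largest log2 fold change of the members with Aβ42. It was at 17.2, 32.9, 18.9, 13.9, 29.1, 14.5 and 22.8 CPM in hearts Abeta42_3451, Abeta42_3452, Abeta42_3455, Abeta42_3456, Abeta42_3457, Abeta42_3458 and Abeta42_3460. With ScrAβ42 it was at 9.56, 11.8, 14.6, 9.70, 16.6, 25.5 and 19.8 CPM in hearts ScrAbeta42_3441, ScrAbeta42_3442, ScrAbeta42_3443, ScrAbeta42_3445, ScrAbeta42_3447, ScrAbeta42_3448 and ScrAbeta42_3449. The highest heart was Abeta42_3452, 5 of 7 Aβ42 hearts lay above the ScrAβ42 median and the groups overlapped. The log2 fold change of 0.47 ± 0.24 had an unadjusted p of 0.0741 in edgeR and an exact permutation p of 0.0997. With the antibodies, *Angptl4* was at 10.5, 20.5 and 44.3 CPM with 3D6 and 9.94, 23.9 and 51.2 CPM with the control antibody. The spread within each group exceeded the difference, 0.05 ± 0.31, and the sign turned in 6 of the 16 fits that left out 1 heart.

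Genes of activation and the carnitine shuttle were higher with 3D6 in 8 of 8 cases, with a median log2 fold change of 0.19, and 1 of 8 was higher with Aβ42. *Cpt2*, for the carnitine palmitoyltransferase of the inner membrane (chr4:107903981-107923610, minus strand, GRCm38), had an unadjusted p under 0.05 with 3D6. With 3D6 it was at 261, 232, 219, 227, 241, 228, 215 and 244 CPM in hearts 4, 7, 12, 16, 17, 20, 21 and 24. With the control antibody it was at 238, 194, 199, 190.5, 205, 236, 173 and 205 CPM in hearts 3, 8, 11, 15, 18, 19, 22 and 23. Every 3D6 heart lay above the control median of 202 CPM and 3 lay above the highest control heart, which was heart 3. The log2 fold change was 0.19 ± 0.08, with an unadjusted p of 0.0291 in edgeR and an exact permutation p of 0.00886. With Aβ42, *Cpt2* was at 222, 334 and 429.6 CPM and with ScrAβ42 at 274, 337 and 419.9 CPM. The log2 fold change was -0.04 ± 0.13, and the Aβ42 hearts reached beyond the ScrAβ42 hearts at both ends. *Slc25a20*, for the carnitine-acylcarnitine carrier, and *Crat*, for carnitine acetyltransferase, had log2 fold changes of 0.19 and 0.20 with 3D6 and exact permutation p-values of 0.0444 and 0.0302. These 2 genes were also above the control median in all 8 3D6 hearts, and with Aβ42 their log2 fold changes were -0.01 and -0.06.

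*Acsl1*, for the main acyl-CoA synthetase of the heart, was at 640.5, 684 and 959 CPM with 3D6 and 277, 613 and 824 CPM with the control antibody. All 8 3D6 hearts lay above the control median, control heart 22 lay far below all others, and the log2 fold change of 0.30 ± 0.17 had an unadjusted p of 0.102 in edgeR. With Aβ42, *Acsl1* was at 964, 1275 and 1418 CPM and with ScrAβ42 at 1040.4, 1338 and 1543 CPM, a log2 fold change of -0.09 ± 0.11. *Acacb*, for the acetyl-CoA carboxylase whose product malonyl-CoA blocks the entry step of the shuttle, was at 414, 710.3 and 849 CPM with Aβ42 and 555, 859 and 939 CPM with ScrAβ42. None of the 7 Aβ42 hearts reached the ScrAβ42 median, yet the groups overlapped and the log2 fold change of -0.20 ± 0.15 had an unadjusted p of 0.200 in edgeR. With 3D6 *Acacb* was at 273, 326 and 489.6 CPM and with the control antibody at 229.9, 297 and 395 CPM, a log2 fold change of 0.23 ± 0.14. *Mlycd*, whose product degrades malonyl-CoA, had log2 fold changes of 0.15 with 3D6 and -0.06 with Aβ42.

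The entry step itself is encoded by *Cpt1b*, the muscle isoform, and *Cpt1a*, the liver isoform. *Cpt1a* was the member with the smallest p in the peptide study. It was at 80.0, 74.5, 109, 91.0, 135, 111 and 70.4 CPM in hearts Abeta42_3451, Abeta42_3452, Abeta42_3455, Abeta42_3456, Abeta42_3457, Abeta42_3458 and Abeta42_3460. With ScrAβ42 it was at 80.5, 75.7, 82.2, 74.8, 76.5, 97.3 and 68.9 CPM in hearts ScrAbeta42_3441, ScrAbeta42_3442, ScrAbeta42_3443, ScrAbeta42_3445, ScrAbeta42_3447, ScrAbeta42_3448 and ScrAbeta42_3449. The highest hearts, Abeta42_3457, Abeta42_3458 and Abeta42_3455 with Aβ42 and ScrAbeta42_3448 with ScrAβ42, were the 4 with the highest atrial marker sums. In the fit that included the atrial score, *Cpt1a* was at 0.05 on the log2 scale. Its log2 fold change of 0.27 ± 0.13 had an unadjusted p of 0.0581 in edgeR and an exact permutation p of 0.118. With the antibodies, *Cpt1a* was at 34.2, 43.3 and 56.4 CPM with 3D6 and 29.4, 42.6 and 47.7 CPM with the control antibody, a log2 fold change of 0.12 ± 0.13. *Cpt1b* was at 582, 614 and 662 CPM with 3D6 and 546, 583 and 661 CPM with the control antibody. It was at 20.6, 26.1 and 33.2 CPM with Aβ42 and 22.6, 31.3 and 38.5 CPM with ScrAβ42. Neither difference, 0.05 ± 0.07 and -0.16 ± 0.13, exceeded the spread between hearts, and the low level in the peptide study is taken up with the levels across tables.

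All 10 genes of the beta-oxidation spiral were higher with 3D6, by log2 0.08 to 0.29 with a median of 0.14, and 3 of 10 were higher with Aβ42, within -0.10 to 0.09. The acyl-CoA dehydrogenases take the first step, each for a range of chain lengths. *Acadvl*, for very long chains, was at 774, 919 and 1056 CPM with 3D6 and 703, 867 and 964 CPM with the control antibody, a log2 fold change of 0.09 ± 0.09. *Acadl*, for long chains, was at 803, 889 and 964 CPM with 3D6 and 679.9, 833 and 929 CPM with the control antibody, a log2 fold change of 0.12 ± 0.08. *Acadm*, for medium chains, was at 929.9, 989 and 1206.5 CPM with 3D6 and 433, 926 and 1095 CPM with the control antibody. For *Acadm* all 8 3D6 hearts lay above the control median and control heart 22 far below every other heart, and its log2 fold change was 0.22 ± 0.14. In the peptide study, the groups overlapped for each of these genes, and only heart Abeta42_3457 lay below the lowest ScrAβ42 heart. Above the highest ScrAβ42 heart lay 2 Aβ42 hearts for *Acadl*, 3 for *Acadm* and 0 for *Acadvl*. *Acadvl* was at 439, 695 and 858 CPM against 505, 740.1 and 938 CPM, *Acadl* at 1002, 1381 and 1577 CPM against 1102, 1353 and 1422 CPM, and *Acadm* at 672, 1269 and 1546 CPM against 919, 1268 and 1335 CPM. Their log2 fold changes were -0.10 ± 0.14, 0.00 ± 0.10 and -0.02 ± 0.15. *Acads*, for short chains, had log2 fold changes of 0.11 with 3D6 and -0.06 with Aβ42.

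*Hadha* and *Hadhb* encode the subunits of the trifunctional protein, which completes the cycle for long chains, and start next to each other on opposite strands of chromosome 5 (chr5:30118304-30155162 and chr5:30155248-30184593, GRCm38). *Hadha* was at 1208, 1313 and 1583.5 CPM with 3D6 and 861, 1199.9 and 1427 CPM with the control antibody. Every 3D6 heart lay above the control median and 2 above the highest control heart, and the log2 fold change of 0.20 ± 0.10 had an unadjusted p of 0.0568 in edgeR and an exact permutation p of 0.0339. With Aβ42, *Hadha* was at 1082, 2097 and 2482 CPM and with ScrAβ42 at 1616, 2056.5 and 2342 CPM, a log2 fold change of -0.10 ± 0.15. *Hadhb* had log2 fold changes of 0.15 with 3D6 and -0.02 with Aβ42. *Ehhadh*, for the bifunctional enzyme of the peroxisome, is a PPARα target of low level in the heart. It was at 9.46, 13.4 and 16.4 CPM with 3D6 and 7.31, 10.7 and 12.9 CPM with the control antibody. Of the 8 3D6 hearts, 5 lay above the highest control heart and 2 below the control median, and the log2 fold change of 0.29 ± 0.13 had an unadjusted p of 0.0432 in edgeR and an exact permutation p of 0.0564. With Aβ42, *Ehhadh* was at 18.4, 20.1 and 27.3 CPM and with ScrAβ42 at 13.2, 19.7 and 32.3 CPM, a log2 fold change of 0.09 ± 0.16. *Hadh*, *Echs1* and *Acaa2*, for the later steps with shorter chains, had log2 fold changes of 0.17, 0.08 and 0.08 with 3D6 and of -0.07, 0.03 and -0.00 with Aβ42.

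Of the 7 auxiliary and electron transfer genes, 5 were higher with 3D6 and 1 with Aβ42. *Eci2*, for an enoyl-CoA isomerase that prepares unsaturated fatty acids for the spiral (chr13:34977748-35027096, minus strand, GRCm38), had the smallest exact permutation p of all members. It was at 99.4, 96.2, 96.04, 101, 116, 102, 101 and 107 CPM in 3D6 hearts 4, 7, 12, 16, 17, 20, 21 and 24. In control hearts 3, 8, 11, 15, 18, 19, 22 and 23 it was at 103, 88.8, 91.7, 88.4, 89.3, 96.5, 73.0 and 89.6 CPM. All 8 3D6 hearts lay above the control median of 89.5 CPM and 2 above the highest control heart, heart 3, with control heart 22 the lowest of all. A log2 fold change of 0.19 ± 0.07 had an unadjusted p of 0.0223 in edgeR and an exact permutation p of 0.00311. With Aβ42, *Eci2* was at 106, 172 and 210.1 CPM and with ScrAβ42 at 134, 155 and 198 CPM, a log2 fold change of 0.02 ± 0.13. *Eci1* and *Decr1*, which also serve unsaturated fatty acids, had log2 fold changes of 0.06 and 0.14 with 3D6 and -0.07 and -0.02 with Aβ42. *Etfa*, *Etfb* and *Etfdh*, which pass the electrons on to the respiratory chain, had log2 fold changes of 0.12, -0.12 and 0.21 with 3D6 and -0.00, -0.12 and -0.01 with Aβ42. *Mcee*, for methylmalonyl-CoA epimerase, was at -0.02 and -0.05.

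*Acot1*, for a cytosolic acyl-CoA thioesterase that PPARα induces (chr12:84009490-84018371, plus strand, GRCm38), had the largest log2 fold change of the members with 3D6 and the smallest unadjusted p. It was at 50.8, 36.4, 27.4, 26.9, 27.3, 32.5, 31.4 and 51.8 CPM in 3D6 hearts 4, 7, 12, 16, 17, 20, 21 and 24. In control hearts 3, 8, 11, 15, 18, 19, 22 and 23 it was at 37.9, 19.2, 24.5, 23.05, 26.1, 24.7, 26.8 and 29.0 CPM. All 8 3D6 hearts lay above the control median of 25.4 CPM, but only hearts 4 and 24 lay above the highest control heart, and 3D6 hearts 12, 16 and 17 were close to that median. The difference of 0.43 ± 0.16 on the log2 scale had an unadjusted p of 0.0143 in edgeR and an exact permutation p of 0.0298. With Aβ42, *Acot1* was at 19.9, 49.5 and 62.9 CPM and with ScrAβ42 at 31.99, 51.8 and 60.3 CPM, a log2 fold change of -0.04 ± 0.20.

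*Acot1* has a near copy beside it, *Acot2* (chr12:83987861-83993873), whose thioesterase works in mitochondria, so that reads are hard to divide between them. Their coding sequences, 1257 and 1359 bases long, are identical at 1181 of 1236 aligned bases, or 95.55%, and 29.2% and 29.9% of the 31-base stretches of the transcripts of each gene occur in the other. The longest stretch they share is shown because a read from it cannot be assigned to either gene. It covers bases 887 to 1159 of the *Acot1* coding sequence and 1010 to 1282 of that of *Acot2*, in the GENCODE vM21 transcripts, plus strand, and is 273 bases long.
shared stretch: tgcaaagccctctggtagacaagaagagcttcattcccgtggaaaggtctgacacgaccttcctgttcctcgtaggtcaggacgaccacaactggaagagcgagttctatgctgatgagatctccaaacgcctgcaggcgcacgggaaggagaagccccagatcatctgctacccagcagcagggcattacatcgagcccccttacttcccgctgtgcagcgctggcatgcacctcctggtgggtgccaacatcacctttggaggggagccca
The counts of *Acot1* and *Acot2* were therefore also added up. Their sum was 145, 155 and 225 CPM with 3D6 and 118, 139 and 199 CPM with the control antibody, a difference of 0.26 in mean log2 CPM, which is not a fitted fold change, with an exact permutation p of 0.0479. With Aβ42 the sum was 83.1, 203 and 252 CPM and with ScrAβ42 146, 205 and 229 CPM, a difference of -0.14 in mean log2 CPM with an exact permutation p of 0.651. *Acot2* alone had fitted log2 fold changes of 0.22 with 3D6 and -0.10 with Aβ42. *Acot13*, a thioesterase of another family, was the only member above 0 with Aβ42 and below 0 with 3D6, by 0.02 and -0.11.

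*Ucp3*, for the uncoupling protein of muscle mitochondria (chr7:100472990-100486432, plus strand, GRCm38), varied more between hearts than almost any other member. It was at 46.8, 98.03 and 164 CPM with 3D6 and 59.0, 66.7 and 106 CPM with the control antibody. The lowest and the highest values were both with 3D6, in hearts 17 and 24, and 7 of 8 3D6 hearts lay above the control median. Its log2 fold change of 0.40 ± 0.19 had an unadjusted p of 0.0513 in edgeR and an exact permutation p of 0.130. In the peptide study *Ucp3* was at 47.3, 126 and 179 CPM with Aβ42 and 68.0, 117 and 247 CPM with ScrAβ42, a log2 fold change of -0.20 ± 0.27.

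**Figure D2:**
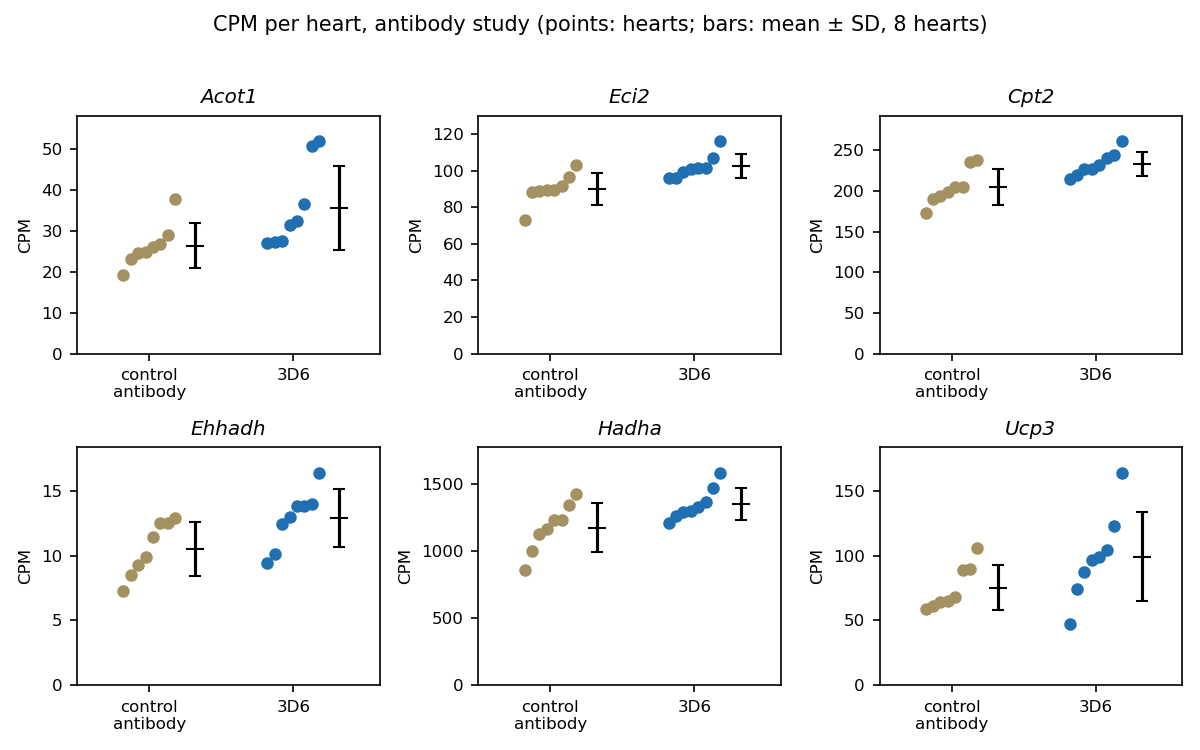
CPM (y axis, starting at 0) of *Acot1*, *Eci2*, *Cpt2*, *Ehhadh*, *Hadha* and *Ucp3* in the hearts of the antibody study, 8 per group. Points are hearts, sorted by value within a group, and bars give mean ± SD. For *Acot1*, *Eci2*, *Cpt2* and *Hadha* all 3D6 hearts lie above the control median, and in every panel the groups overlap.

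The 4 genes of lipid droplets were all higher with 3D6, by 0.06 to 0.13, and 1 of 4 was higher with Aβ42. *Pnpla2*, for adipose triglyceride lipase, which begins the breakdown of stored triglyceride, was at 360.3, 406 and 455 CPM with 3D6 and 336, 379 and 405 CPM with the control antibody. Of the 3D6 hearts, 5 lay above the highest control heart and 2 below the control median, and the log2 fold change of 0.13 ± 0.08 had an unadjusted p of 0.105 in edgeR and an exact permutation p of 0.0476. With Aβ42 it was at 754, 1051 and 1182 CPM and with ScrAβ42 at 815, 1058 and 1168.5 CPM, a log2 fold change of -0.01 ± 0.11. *Plin5*, which ties droplets to mitochondria, was at 114, 137 and 145 CPM with 3D6 and 104, 127 and 153 CPM with the control antibody. With Aβ42 it was at 79.1, 231 and 297 CPM and with ScrAβ42 at 139.9, 225 and 307 CPM, with heart Abeta42_3457 far below every other heart. *Plin2*, a coat protein of droplets that lipid loading induces, was at 36.1, 45.0 and 53.4 CPM with 3D6 and 35.3, 41.3 and 49.4 CPM with the control antibody. It was at 50.1, 60.5 and 93.1 CPM with Aβ42 and 53.5, 60.8 and 71.7 CPM with ScrAβ42. The log2 fold changes of *Plin5* were 0.08 ± 0.09 and -0.05 ± 0.23 and those of *Plin2* 0.06 ± 0.10 and 0.06 ± 0.11, all within the spread between hearts. *Dgat2*, for the last step of triglyceride synthesis, had 0.12 with 3D6 and -0.05 with Aβ42.

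*Ppara* itself (chr15:85734983-85802819, plus strand, GRCm38) varied more between hearts of the antibody study than any other member. It was at 6.82, 8.86 and 30.2 CPM with 3D6 and 6.29, 10.3 and 22.5 CPM with the control antibody, so that the 3D6 median was the lower one while the fitted log2 fold change was 0.27 ± 0.36. With Aβ42 it was at 56.7, 77.6 and 96.1 CPM and with ScrAβ42 at 48.7, 68.6 and 91.6 CPM, a log2 fold change of 0.05 ± 0.14. The receptor binds as a dimer with RXR to repeats of the half-site AGGTCA with a base between them. In the 35 RefSeq promoters (GRCm38.p6, 250 bases before to 50 after the start, 300 bases) that were found for 31 of the members, the full motif AGGTCANAGGTCA was found 0 times on either strand, against 0.0396% of 32851 promoters. The looser AGGNCANAGGNCA, which includes it, was also found 0 times, against 0.381%. The half-site alone, on either strand, was in 10 promoters of 9 members, *Acacb*, *Acadm*, *Acadvl*, *Cd36*, *Cpt1a*, *Echs1*, *Plin2*, *Plin5* and *Ucp3*, against 16.3% of all promoters. These matches describe letters in short windows only. Shown are the matches that lie within 100 bases before the start, with 12 bases on either side, read along the strand of the gene, and with the half-site or its reverse complement TGACCT in capitals.
Acadvl, chr11:70015498-70015527, minus strand: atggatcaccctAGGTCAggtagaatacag
Cpt1a, chr19:3323195-3323224, plus strand: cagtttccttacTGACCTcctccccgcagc
Echs1, chr7:140116487-140116516, minus strand: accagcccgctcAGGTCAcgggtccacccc
Ucp3, chr7:100472935-100472964, plus strand: gaattaggtttcAGGTCAgctggtgcacag
The matches begin 87, 94, 83 and 44 bases before the RefSeq start.

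Many members were low or high in the same hearts. The deviation of a heart was taken as the median over the 39 genes of log2 CPM less the mean of the gene over all hearts of the study. It was -0.65 in heart Abeta42_3457, where 2 of 39 genes lay above the study median, and -0.36 in heart ScrAbeta42_3448, with 3 of 39. At the other end, it was 0.33 in heart Abeta42_3460, with 38 of 39, and 0.26 in heart ScrAbeta42_3449, with 33 of 39. Heart Abeta42_3457 had the lowest Aβ42 value for 36 members and heart Abeta42_3460 the highest for 27, and hearts ScrAbeta42_3448 and ScrAbeta42_3449 had the lowest ScrAβ42 value for 35 and the highest for 25. In the antibody study, the deviation was -0.32 in control heart 22, -0.21 in control heart 15 and -0.17 in control heart 8, and it was 0.23 in 3D6 heart 24, where 38 of 39 genes were above the study median, and 0.19 in 3D6 heart 4. Control heart 22 had the lowest control value for 21 members but the highest for 8, *Slc27a1*, *Angptl4*, *Acaa2*, *Eci1*, *Mcee*, *Etfb*, *Acot13* and *Ucp3*, with *Etfb* at 769 CPM against a group median of 392.2 CPM. Control heart 3, at 0.17, had 34 of 39 above. All 8 3D6 hearts had a deviation above 0, that of heart 12 by a negligible margin, and so had 2 of 8 control hearts.

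**Figure D3:**
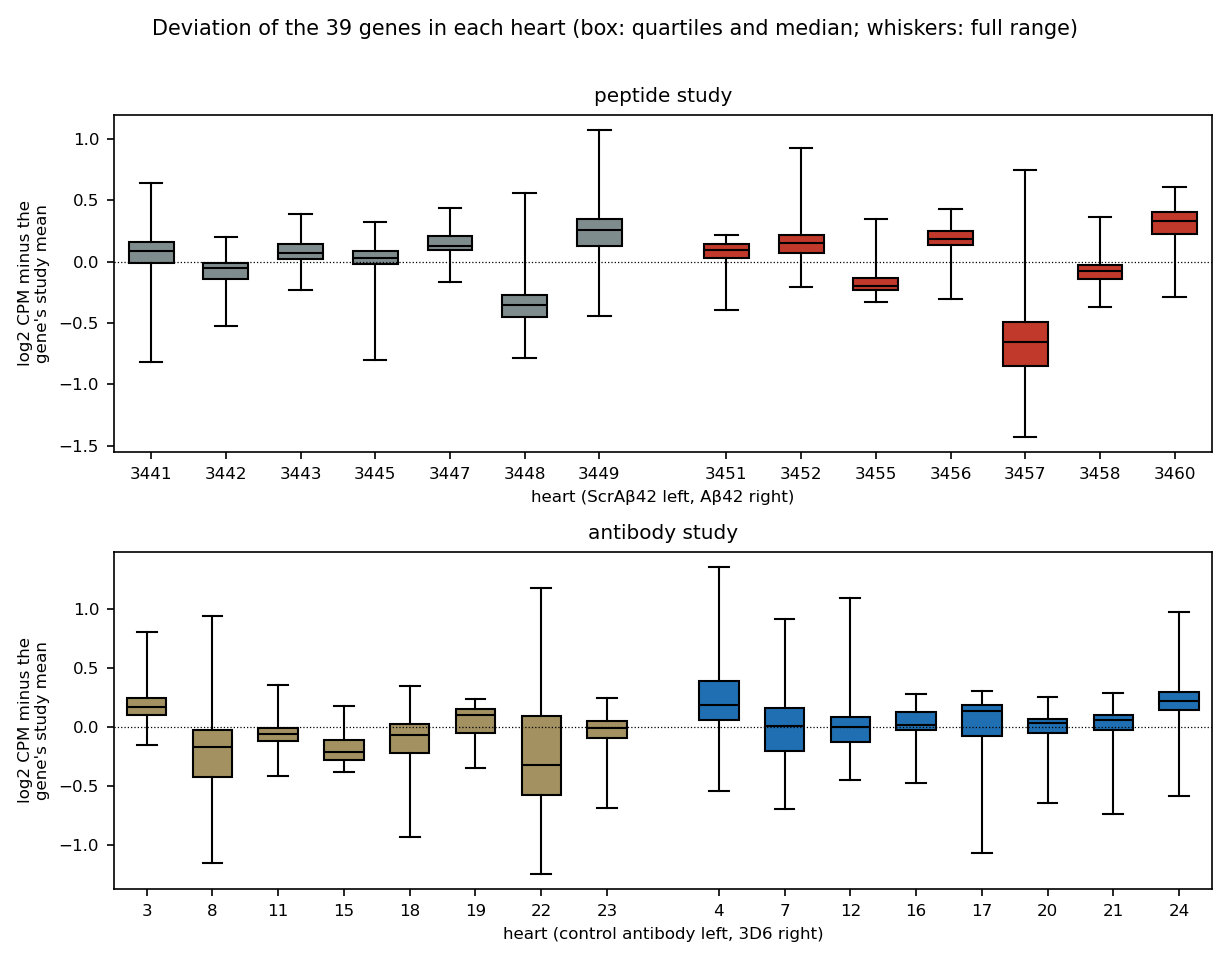
Log2 CPM of each of the 39 genes less its mean over the hearts of the study (y axis), for each heart by the number that ends its label (x axis), peptide study above and antibody study below. Boxes show quartiles and median over the genes and whiskers the full range. Hearts Abeta42_3457 and ScrAbeta42_3448 of the peptide study and control heart 22 of the antibody study lie lowest.

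Some markers of cell types were highest or lowest in hearts at the ends of these deviations, though not in all of them. In the peptide study, the summed level of 11 cardiomyocyte markers was 59052 CPM in heart Abeta42_3457 and 74029 CPM in heart ScrAbeta42_3448, and 107350 CPM in heart Abeta42_3460 and 117810 CPM in heart ScrAbeta42_3449, the same hearts at either end. The 4 hearts with the highest atrial sums, Abeta42_3457, Abeta42_3455, Abeta42_3458 and ScrAbeta42_3448, were also the 4 with the lowest deviations. All 5 atrial markers were higher with Aβ42, with a median log2 fold change of 2.31, and 1 of them, *Bmp10*, had an unadjusted p under 0.05. All 7 tested adipocyte markers were also higher with Aβ42, with a median of 1.049 and summed levels of 676 to 1378 CPM against 580.0 to 810 CPM, and 1 had such a p. Cardiomyocyte markers were lower in 9 of 11 cases, with a median of -0.10, red cell markers in 5 of 5, with a median of -1.37 and summed levels of 556 to 5073 CPM against 802 to 15945 CPM, and skeletal muscle markers in 7 of 8, with a median of -0.39, none of them with such a p. With the atrial score as a covariate, 39 of 39 members were above 0 with Aβ42, with a median of 0.18, against 49.1% of all genes above 0, and 3 had an unadjusted p under 0.05, close to the 7.35% of all genes. With the cardiomyocyte score, 35 of 39 were above 0, against 50.1%, with a median of 0.07 and 0 with such a p, against 8.03%. In the antibody study, 4 of 11 cardiomyocyte markers were higher with 3D6, with a median of -0.03. Endothelial markers, lower in 10 of 10 cases with a median of -0.21, had their highest sum, 1285 CPM, in control heart 22, and their lowest, 770 and 784 CPM, in 3D6 hearts 24 and 4. Other hearts did not follow this order. Control heart 15, with a deviation of -0.21, had the lowest control sum, 829 CPM, and control heart 19, with a deviation of 0.10, had 968 CPM. The defining endothelial markers *Pecam1* and *Emcn* were at 110.3 to 134 and 23.6 to 33.1 CPM with 3D6 and 119.8 to 173 and 28.3 to 43.0 CPM with the control antibody, none of them at 0. Fibroblast markers were lower with 3D6 in 7 of 7 cases, macrophage markers in 8 of 9 and atrial markers in 4 of 4, the last with a median of -0.97, none with an unadjusted p under 0.05. The covariate scores come from these same hearts, and their markers leaned to one side with treatment, the atrial and cardiomyocyte lists with Aβ42 and the endothelial list with 3D6. The covariate fits therefore cannot tell the part of these markers in the members' differences from that of treatment, and that part was not tested.

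**Figure D4:**
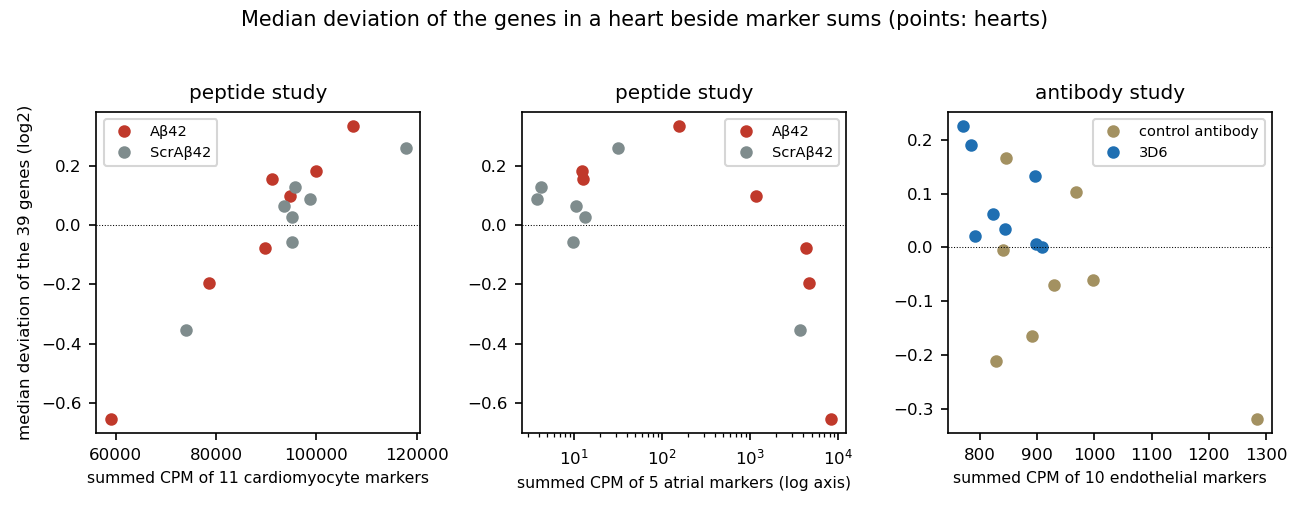
Median deviation of the 39 genes in a heart (y axis, log2) against the summed CPM of 11 cardiomyocyte markers and of 5 atrial markers (log axis) in the peptide study and of 10 endothelial markers in the antibody study. Points are hearts, coloured by group. Heart Abeta42_3457 lies at the lowest cardiomyocyte and the highest atrial sum, and control heart 22 at the highest endothelial sum.

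The studies did not share control hearts, so that directions could be set side by side. A log2 fold change below 0 with Aβ42 and above 0 with 3D6 was found for 27 of 39 members, or 69.2%, against 26.0% of the 11361 genes tested in both tables. The directions in each study already give nearly this share: 74.4% of members were lower with Aβ42 and 92.3% higher with 3D6, the product of which is 68.6%, and for all genes the product is 24.2%. Both were above 0 for 9 members, *Acadl*, *Angptl4*, *Cpt1a*, *Echs1*, *Eci2*, *Ehhadh*, *Plin2*, *Ppara* and *Slc27a1*, and both below 0 for *Etfb* and *Mcee*. Of the 4 genes with an unadjusted p under 0.05 with 3D6, *Acot1* and *Cpt2* had values below 0 with Aβ42, of -0.04 each. *Eci2* and *Ehhadh* had values above 0. Since many members are low or high in the same hearts, these directions are not independent of each other, and those with Aβ42 turned for most members without heart Abeta42_3457, as given above.

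Levels per kilobase of transcript could be compared between genes within a study. In both studies, the length of a gene was weighted by its transcript counts in the antibody study, since the peptide counts are per gene. In ScrAβ42 hearts, *Lpl* was highest at 1769 ± 326 CPM per kb (SD, n = 7), then *Fabp3* at 1063 ± 142, *Cd36* at 961 ± 104 and *Acadl* at 699 ± 57.8. *Fabp3* and *Cd36* did not differ beyond their spread, nor did *Acadl*, *Acaa2*, *Hadha* and *Acadm*, each from the next. The lowest were *Ehhadh* at 6.84 ± 1.98 and *Angptl4* at 6.36 ± 2.40, which also did not differ. In control antibody hearts, *Fabp3* was highest at 3434 ± 472.5 CPM per kb (SD, n = 8), followed by *Lpl* at 779 ± 121 and *Hadhb* at 533 ± 94.99. From *Hadhb* on, *Etfb*, *Acadm*, *Acadl*, *Acaa2*, *Acadvl*, *Hadha* and *Cd36* did not differ beyond their spread, each from the one before. Of the 38 steps between neighbours in each order, 10 exceeded the larger SD of the pair.

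The tables were normalized separately, and some members stood at very different levels in them. Over genes tested in both, the antibody table was lower by a median of -0.61 on the log2 scale, 1.43% of genes were over 4-fold higher in it and 1.48% over 4-fold lower. Against this, *Cpt1b* was at a mean of 28.8 CPM in the peptide table and 604 CPM in the antibody table, 20.97 times as high, *Etfb* at 73.1 and 418 CPM and *Hadhb* at 254 and 1085 CPM. All 3 genes share much sequence with another annotated gene: 93.7% of the 31-base stretches of *Cpt1b* occur in *Gm44502* and 68.0% of those of *Etfb* in *Gm45233*, each overlapping on the same strand, and 65.2% of those of *Hadhb* in the pseudogene *Gm13910*. *Fabp3*, 35.2% of whose stretches occur in its pseudogene *Fabp3-ps1*, was 3.36 times as high. *Acot1* and *Acot2*, which share 39.2% and 37.3% of their stretches with any other gene, were at 0.648 and 0.845 times. In the antibody table, *Gm44502* held 2.84 CPM with 3D6 and 8.75 CPM with the control antibody on average, and in the peptide table no counts of it were found. *Ppara*, which shares no stretch with another gene, was at 72.4 and 13.4 CPM, 0.185 times. The muscle isoform *Cpt1b* exceeded the liver isoform *Cpt1a* per length in the antibody table, at 207 against 9.53 CPM per kb in control hearts, but not in the peptide table, at 10.6 against 18.4 CPM per kb in ScrAβ42 hearts. The cause of these differences was not tested.

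**Figure D5:**
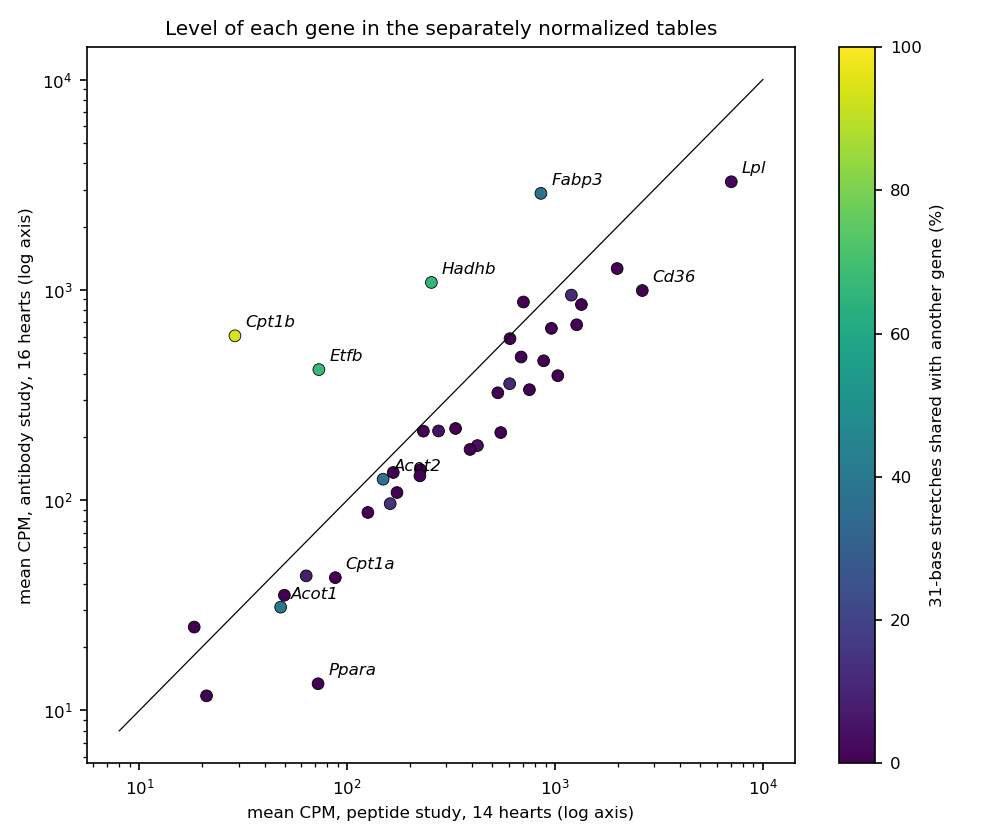
Mean CPM of each of the 39 genes in the peptide study (x axis, 14 hearts, log axis) and the antibody study (y axis, 16 hearts, log axis), with the line of equal values. Colour gives the share of 31-base stretches found in another gene. *Cpt1b*, *Etfb* and *Hadhb*, which share the most, lie above the line, and *Ppara* lies furthest below the others.

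The antibody table also resolves transcripts. *Cpt1b-201* held 99.0% of the counts of its gene, *Cpt2-201* 97.97%, *Ppara-202* 96.7% and *Acot1-201* 90.8%. Other members were split over transcripts that the annotation does not list as coding: a transcript marked for nonsense-mediated decay held 61.2% of *Angptl4* and 59.8% of *Pnpla2*, and a processed transcript 45.1% of *Hadha*. *Eci2*, 15.0% of whose stretches occur in *Eci3*, had 57.3% of its counts on *Eci2-211*. Genes on the opposite strand overlap 12 members, *Hadha*, *Eci2*, *Ehhadh* and *Ucp3* among them, and no source states whether counting used the strand, so that their reads may hold some of those neighbours.

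The spread between hearts of 1 group set what could be seen. The members' median SD within groups was 0.293 on the log2 scale in the peptide study, against 0.178 for the 6526 genes at the members' levels or above. In the antibody study, it was 0.228 against 0.233 for 6869 genes. It was lowest for *Acadl* in the peptide study, at 0.175, and for *Cpt1b* in the antibody study, at 0.0746. It was highest for *Ucp3*, at 0.582, and for *Ppara*, at 0.791.

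The other genes of lipid metabolism, from lists for peroxisomal oxidation, other mitochondrial enzymes, synthetases and thioesterases, transport, storage, synthesis, regulators and further PPAR targets, were higher and lower in differing shares from list to list. With 3D6, 76 of 122 tested genes were higher, against 47.4% of all genes. Of the lists, peroxisomal oxidation had 12 of 15 genes higher, other mitochondrial enzymes 14 of 18, regulators 16 of 22 and other transport 3 of 12. Synthetases and thioesterases had 5 of 15 higher, storage 13 of 19, synthesis 7 of 15 and further PPAR targets 10 of 15. An unadjusted p under 0.05 was reached by 5 higher and 5 lower genes, where 1.32% and 2.32% of all genes did, none of them called. *Acsm5*, for a mitochondrial acyl-CoA synthetase, was at 11.6 ± 3.30 CPM with 3D6 and 7.21 ± 2.23 CPM with the control antibody (SD, 8 hearts each), a log2 fold change of 0.69 with an unadjusted p of 0.00305 in edgeR. *Slc25a42* and *Slc25a34*, for mitochondrial carriers, had log2 fold changes of 0.28 and 0.31, and *Agpat3* 0.22. The lower ones were *Cpt1c*, *Acsl5*, *Dgat1*, *Cav1* and *Acly*, at -0.61, -0.30, -0.26, -0.23 and -0.21. *Pdk4*, a PPARα target that spares glucose, was at 238 to 1039 CPM with 3D6 and 179.6 to 793 CPM with the control antibody, a log2 fold change of 0.52 with an unadjusted p of 0.1002 in edgeR. *Pdk4* was chosen for mention with its values known. With Aβ42, 66 of 123 genes were higher, against 50.5% of all genes, 5 higher and 3 lower with such a p, where 3.59% and 2.92% of all genes had one. The higher ones were *Plin1*, *Elovl6*, *Scd1*, *Cidea* and *Fabp5*, at 2.66, 2.32, 2.29, 0.54 and 0.37, and *Plin1* ran from 0 to 84.8 CPM with Aβ42 and from 0 to 9.21 CPM with ScrAβ42. Of these, *Plin1* is also in the adipocyte marker list, which was higher with Aβ42 as given above, and *Cidea* in the list for brown adipocytes, of which 2 of 3 tested genes were higher. The other higher gene of that list, *Ucp1*, ran from 0 to 248 CPM with Aβ42 and from 0 to 0.194 CPM with ScrAβ42. Its log2 fold change of 9.13 had an unadjusted p of 0.00114 in edgeR. The summed level of the brown adipocyte list was high in few hearts, at 382 CPM in heart Abeta42_3457 and 121 CPM in heart Abeta42_3451. In the other Aβ42 hearts it was 40.6 to 64.3 CPM, and with ScrAβ42 it was 41.4 to 60.0 CPM. The lower lipid genes with such a p included *Lpin3* and *Med1*, at -0.38 and -0.22, the latter for a coactivator subunit of nuclear receptors.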

How the data were processed

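Left ventricular total RNA of 30 hearts was sequenced with a stranded kit. The authors quantified reads with Salmon (version not given in the sources used here) against GENCODE on GRCm38. By the methods, their GENCODE release was later than vM21, which was used here for sums, overlaps and shared stretches. The deposited peptide table holds whole-number counts for 49671 genes, and how they were summed is not stated. The deposited antibody table holds estimated counts for 142647 transcripts, which were summed here to 56386 genes with GENCODE vM21 (99.21% of transcripts matched, and the other 0.381% of counts were kept as features of their own) and rounded. One count column matching no labelled sample was not used (count columns not used: 1). The 39 members, the other lists and the rule for naming genes were chosen with earlier results of these data known. Values in every heart, or the lowest, median and highest heart, were given for a set of central members, for members with an unadjusted p under 0.05 and for the 3 largest log2 fold changes in each study. Other pathway genes were named where the unadjusted p was under 0.05, and some of them are not reported here.

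Each study was fitted alone with edgeR 4.0.16 (R 4.3.3), with TMM scaling, genes whose counts averaged 10 or more over the hearts, the quasi-likelihood test and Benjamini-Hochberg adjustment over all genes at 0.05. Intervals are 95%. CPM used TMM library sizes, and log2 CPM a prior count of 2. Exact permutation tests compared mean log2 CPM, two-sided, over all assignments of the hearts, without adjustment. On simulated data, 80.0% of 200 genes changed by 1 on the log2 scale were recovered among 11865 genes in the peptide design with 5 false calls, and 87.5% among 12191 genes in the antibody design with 10. Alternatives were DESeq2 1.42.0, RLE and total count scaling, other filters, mitochondrial genome genes left out, marker scores and the mitochondrial share as covariates, and each heart left out. Promoters came from RefSeq (GRCm38.p6), transcripts and positions from GENCODE. Counts limit precision, and p-values cover only the spread between hearts.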

Additional observations from a re-analysis of the deposited data

Results flagged for a closer look

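A heart far from the rest of its group was marked where the gap to its nearest neighbour, divided by the range of the group, exceeded Dixon's 95% critical value for a group of its size. Of 164 groups of values tested, 21 were marked, where chance marks about 1 in 20, or 8.2. All of them were low values of 3 hearts, and several values of 1 heart are not separate events.

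Heart Abeta42_3457 was lowest and far from the rest for 8 members. The gap was 0.688 of the range for *Acacb* (414 CPM against a group median of 710.3), 0.608 for *Acot1* (19.9 against 49.5), 0.638 for *Acot2* (63.2 against 155) and 0.575 for *Eci1* (135 against 287). It was 0.603 for *Fabp3* (364 against 851), 0.731 for *Lpl* (3509.6 against 7584.5), 0.718 for *Mlycd* (95.1 against 173) and 0.674 for *Plin5* (79.1 against 231).

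Heart ScrAbeta42_3448 was lowest and far from the rest for 6 members and for the share of counts on the 39 genes, 2.26% against a median of 2.79%, with a gap of 0.782. The gap was 0.736 for *Acadl* (1102 CPM against 1353), 0.584 for *Echs1* (298 against 399.7), 0.668 for *Eci1* (194 against 290.2), 0.591 for *Etfa* (440.0 against 635), 0.587 for *Mcee* (32.3 against 50.5) and 0.583 for *Pnpla2* (815 against 1058).

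Control antibody heart 22 was lowest and far from the rest for 6 members. The gap was 0.607 for *Acadm* (433 CPM against 926), 0.533 for *Echs1* (105 against 176), 0.554 for *Eci2* (73.0 against 89.5), 0.625 for *Etfa* (209 against 353), 0.603 for *Etfdh* (213 against 452) and 0.555 for *Slc25a20* (79.9 against 129.6).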

How the results depend on the processing

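In edgeR, no gene was called in either study with all hearts. In the peptide study, 3 genes were called without heart Abeta42_3452 and 1 without heart ScrAbeta42_3448, none a member, and DESeq2 called 12 genes with all hearts. No paired analysis was possible because the groups compared share no replicate numbers. The cardiomyocyte and endothelial covariates, and leaving out hearts Abeta42_3457 and ScrAbeta42_3448 together, were chosen after seeing the data. For every turn listed here, the cause was not tested. With standard errors of 0.145 and 0.111 at the median, small changes could not be seen.

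With Aβ42, log2 fold changes turned sign as follows, none of them called. *Acadl* was at -0.0021 with DESeq2 and with RLE scaling and at -0.0013 without mitochondrial genome genes, and *Pnpla2* at 0.010 with total count scaling. With the atrial score as covariate, the median was 0.18, 39 members were higher, 3 had an unadjusted p under 0.05 (7.35% of all genes), and values were 0.20 for *Cd36*, 0.20 for *Fabp3*, 0.24 for *Lpl*, 0.082 for *Acsl1*, 0.020 for *Cpt1b*, 0.13 for *Cpt2*, 0.12 for *Acadvl*, 0.21 for *Acadm*, 0.11 for *Hadha*, 0.29 for *Plin5*, 0.16 for *Pnpla2*, 0.085 for *Ucp3*, 0.30 for *Acot1* and 0.033 for *Acacb*. With the adipocyte score, the median was 0.073, 33 members were higher, and values were 0.090 for *Cd36*, 0.076 for *Fabp3*, 0.057 for *Lpl*, 0.048 for *Cpt2*, 0.089 for *Acadm*, 0.0093 for *Hadha*, 0.10 for *Plin5*, 0.062 for *Pnpla2* and 0.12 for *Acot1*. With the cardiomyocyte score, the median was 0.071, 35 were higher, and values were 0.077 for *Cd36*, 0.048 for *Fabp3*, 0.048 for *Lpl*, 0.051 for *Cpt2*, 0.017 for *Acadvl*, 0.079 for *Acadm*, 0.12 for *Plin5*, 0.060 for *Pnpla2*, 0.044 for *Ucp3* and 0.066 for *Acot1*. Values were -0.012 for *Acadl* and -0.0032 for *Eci2* with the mitochondrial share, with 2 members at an unadjusted p under 0.05 (10.4% of all genes), and -0.0078 for *Acadl* and -0.0058 for *Eci2* with the endothelial score, with 1 such member (8.93%). With no filter on low counts, 2 had such a p (5.85%). Without hearts Abeta42_3457 and ScrAbeta42_3448, the median was 0.011, 23 were higher, 2 had such a p (8%), and values were 0.032 for *Cd36*, 0.0085 for *Fabp3*, 0.021 for *Acadm*, 0.011 for *Plin5*, 0.0033 for *Pnpla2* and 0.015 for *Acot1*. Leaving out each heart in turn gave -0.043 to 0.060 for *Acadl*, -0.098 to 0.077 for *Acadm*, -0.12 to 0.095 for *Acot1*, -0.066 to 0.082 for *Cd36*, -0.12 to 0.034 for *Cpt2*, -0.055 to 0.099 for *Eci2*, -0.14 to 0.063 for *Fabp3*, -0.17 to 0.0011 for *Hadha*, -0.15 to 0.047 for *Lpl*, -0.052 to 0.11 for *Plin2*, -0.14 to 0.10 for *Plin5*, -0.060 to 0.053 for *Pnpla2*, -0.025 to 0.12 for *Ppara* and -0.33 to 0.023 for *Ucp3*, -0.10 to 0.063 for the median, 5 to 33 members higher and 0 to 2 with such a p. Of all genes, 49.2% to 51.9% were higher in these fits and 5.14% to 10.6% had such a p. The share was 10.6% without heart ScrAbeta42_3448, the fit with 2 such members.

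With 3D6, *Angptl4* was at -0.020 with total count scaling and *Ppara* at -0.15 with the mitochondrial share. With the endothelial score, 0 members had an unadjusted p under 0.05 (2.21% of all genes) and values were -0.032 for *Cd36*, -0.046 for *Lpl*, -0.014 for *Acsl1*, -0.049 for *Acadm*, -0.0075 for *Plin5* and -0.040 for *Ppara*. Members with such a p numbered 8 with DESeq2 (3.67% of all genes), 7 with RLE scaling (3.68%), 7 with at least 10 counts in every heart (3.69%), 8 with the atrial (3.65%), 11 with the adipocyte (5.74%) and 8 with the cardiomyocyte score (3.72%). Leaving out each heart gave -0.12 to 0.30 for *Angptl4*, 2 to 10 members with such a p (2.08% and 5.37% of all genes in those fits) and a median of 0.11 to 0.17. Total count scaling moved the median of all genes to -0.06 and left 35 of 39 members higher.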
